A study of Mus musculus with 30 samples.

Results

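Helicobacter and Mucispirillum are spiral bacteria of the intestinal mucus layer, and both were followed here in mouse stool through counts of 16S rRNA gene reads. A sequence variant was taken as a member when its taxon label held g__Helicobacter or g__Mucispirillum and it had reads in any of the 30 libraries, which gave 15 of the 949 bacterial variants with reads. Helicobacter held 9 of them and Mucispirillum 6. The labels placed every member in its own lineage, Campilobacterota for Helicobacter and Deferribacterota for Mucispirillum, and 0 other variants of those families or phyla had reads. The variants come without sequences, so each is called by its row in the deposited table, and the genus and species names are those the authors assigned.

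Both genera are motile, corkscrew-shaped Gram-negative bacteria that swim in mucus and crypts rather than in the lumen, and both are known to respire, Helicobacter with oxygen at low levels and hydrogen, Mucispirillum with nitrate. The species of Helicobacter found in laboratory mice, among them Helicobacter typhlonius and Helicobacter mastomyrinus, colonise the caecum and colon and can accompany inflammation in mice with immune defects. Mucispirillum schaedleri is a member of the defined mouse flora and is the only well-described species of its genus. Stool holds what is shed from the mucus, so a share in stool is not a share at the mucosa.

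The stool came from female Gpr15l-/- mice (KO) and female WT mice. Gpr15l encodes a small secreted protein of barrier epithelia that is the ligand of GPR15, a homing receptor of T cells. KO and WT mice were sampled at weaning, at about 4 weeks of age, when they were assigned at random to cages of mixed genotype. Stool was collected again after 4 to 5 weeks of co-housing and a last time after 6 further weeks apart, without labels that follow a mouse between times. Each genotype had 5 libraries at each time. Weaning is covered by KO libraries 1 to 5 and WT libraries 6 to 10. Co-housing is covered by KO libraries 11 to 15 and WT libraries 16 to 20. Re-separation is covered by KO libraries 21 to 25 and WT libraries 26 to 30. The labels give no cage, litter or mouse identity, so p-values measure the spread between these stool samples only. Age and housing changed together. Genotype rests on the labels, because 16S reads hold no Gpr15l sequence.

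Shares are percentages of all non-mitochondrial reads of a library, of which the 20 libraries of the first 2 times had 10491 to 52364 each and the 10 libraries of the last time 39703 to 73588. A count of 0 allows a share of up to 0.004077% to 0.0286%, as 3 reads of the library. The 95% Wilson half-width of a share was at most 0.532 percentage points for Helicobacter and 0.472 for Mucispirillum, and it covers counting error only, since PCR reads are not independent molecules. The re-separation libraries shared 0 variants with the other 2 times, so variants are compared only within weaning and co-housing or within re-separation, and for genera the library set and the time of re-separation cannot be told apart. Libraries 1, 5, 11 and 19 were named as standing apart in an earlier look at these data. Their mean Bray-Curtis distance to the rest of their group was 0.378 to 0.499, against 0.189 to 0.441 for the other 26 libraries. More bacteria, more copies of the 16S gene per cell and a higher yield of PCR cannot be told apart in such shares.

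Mucispirillum was scarce at weaning and abundant after co-housing in both genotypes. After co-housing its shares were 0.475, 4.63, 9.37, 5.75 and 5.36% in KO libraries 11 to 15, and at weaning 0.213, 0.208, 0.435, 0.118 and 6.50% in KO libraries 1 to 5. In the WT libraries its shares were 3.17, 1.75, 3.01, 0.422 and 5.77% after co-housing (libraries 16 to 20), and 0.0809, 0.306, 0.279, 0.0890 and 0.0874% at weaning (libraries 6 to 10). Each WT library after co-housing lay above every WT library at weaning, whereas KO library 5, already at 6.50% at weaning, reached above all but 1 of the co-housed KO libraries. The mean of the genus ranked 6 among the genera of co-housed KO stool and 9 in co-housed WT stool, against 14 in KO and 24 in WT stool at weaning.

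Mucispirillum rose from weaning to co-housing in both genotypes by edgeR's quasi-likelihood test with Benjamini-Hochberg adjustment over the 72 genera tested. The log2 fold change of co-housing over weaning was 2.20 ± 0.86 in KO mice (SE, adjusted p = 0.0421) and 3.20 ± 0.90 in WT mice (adjusted p = 0.0107), where the median genus stood at 0.74 in KO and 0.90 in WT mice. Of all genera tested, 31.9% passed in KO and 29.2% in WT mice, and the ranges of the 2 times did not overlap for 5.56% in KO and 20.8% in WT mice. The WT difference of 2.66 percentage points had an exact two-sided permutation p of 0.00794, the smallest that 5 against 5 libraries can give (adjusted p = 0.0381). It also passed under 10 of 10 other settings of the fit and without any 1 library.

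The KO call was less stable. It was lost under 7 of 11 other settings, with adjusted p of 0.0538 to 0.409, and without library 1, 2, 3, 4, 13, 14 or 15. Without library 5 the KO log2 fold change was 4.52 (adjusted p = 0.000376). The rise itself was not shown to differ between genotypes: the genotype difference after co-housing minus that at weaning was -1.0 on the log2 scale and did not pass (4.17% of genera did), and without library 5 it turned to 1.32.

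**Figure D1:**
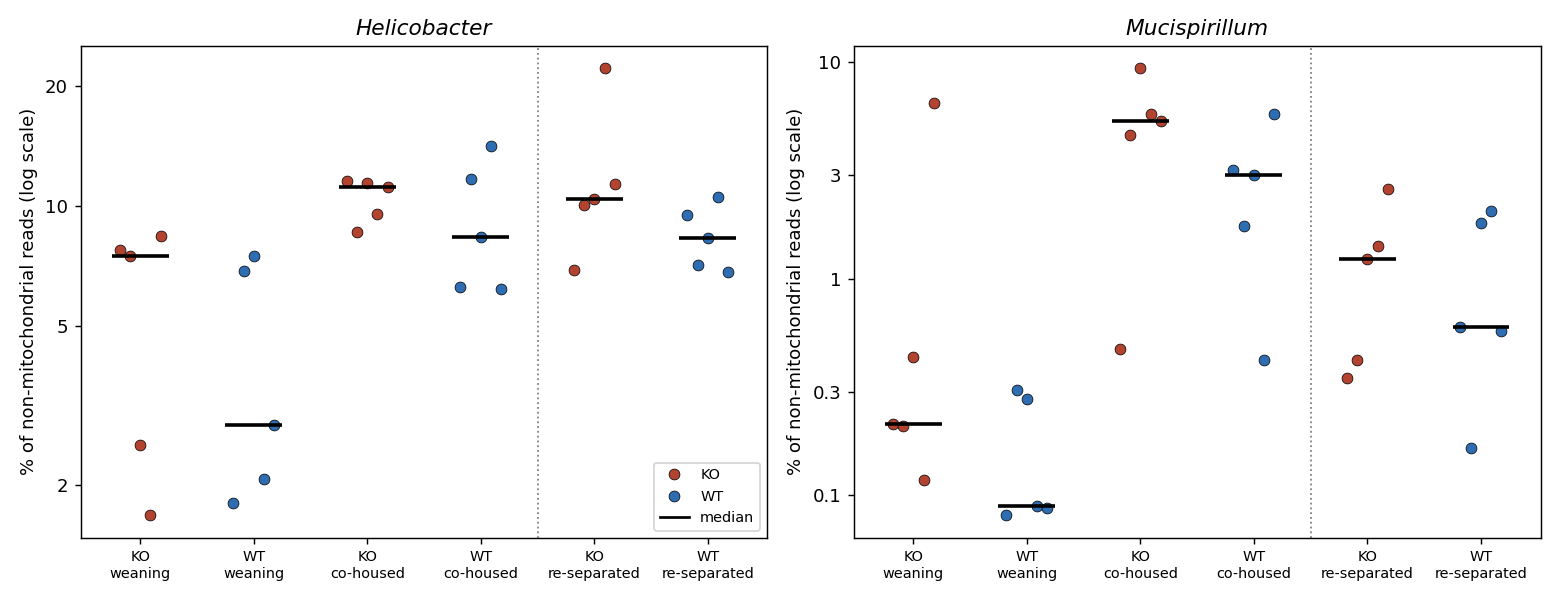
Share of non-mitochondrial reads (percent, log scale) of Helicobacter, left, and Mucispirillum, right, in each of the 30 libraries, grouped by genotype and time. Points are libraries (red KO, blue WT), bars are medians of 5, and the dotted line separates the 2 library sets; WT Mucispirillum after co-housing, at 0.422 to 5.77%, lies above its range at weaning, and KO library 5 at 6.50% stands apart from the other KO mice at weaning.

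After re-separation Mucispirillum lay at 0.347, 0.420, 1.24, 1.41 and 2.61% in KO libraries 21 to 25 and at 0.597, 0.166, 1.81, 2.06 and 0.572% in WT libraries 26 to 30. The WT median, 0.597%, sat between the medians of the earlier times, and both ranges overlapped the co-housed range of their genotype. Re-separation over co-housing had a log2 fold change of -1.88 ± 0.85 in KO mice (SE, edgeR adjusted p = 0.12) and -1.16 ± 0.84 in WT mice (adjusted p = 0.521), where 19.4% and 1.39% of genera passed. Against weaning, the change was 0.32 ± 0.83 in KO mice (adjusted p = 0.919) and 2.04 ± 0.86 in WT mice (adjusted p = 0.102), where 27.8% and 12.5% of genera passed. Library 5 set the KO value: without it the change over weaning was 2.65 (adjusted p = 0.0184).

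Between genotypes, the level of Mucispirillum passed at none of the 3 times in the main edgeR fit. Its mean share (± SD of 5 libraries) was 1.49 ± 2.80% in KO weanlings, against 0.168 ± 0.114% in WT weanlings. Co-housed KO mice had 5.12 ± 3.17%, against 2.82 ± 1.98% in co-housed WT mice, and KO mice kept apart again had 1.20 ± 0.917%, against 1.04 ± 0.839% in their WT counterparts. The log2 fold change of KO over WT was 2.10 ± 0.87 at weaning (SE, edgeR adjusted p = 0.0694), 1.10 ± 0.84 after co-housing (adjusted p = 0.611) and 0.38 ± 0.83 after re-separation (adjusted p = 0.892). Of all genera, 23.6%, 1.39% and 0% passed at these times, the last with 5 genera at an unadjusted p under 0.05. The weaning value rested on library 5, without which it was -0.23 (adjusted p = 0.875). It passed by edgeR without library 1 or without library 4 (lowest adjusted p = 0.0373). It also passed with library size alone (3.14, adjusted p = 0.0076) and with DESeq2 (2.24, adjusted p = 0.0217), and was 0.68 with limma-voom (adjusted p = 0.732).

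Beneath these levels, Mucispirillum was carried by 1 of 2 alternative variants in almost every library. KO libraries held 1 form throughout a library set, and WT libraries were mixed. The weaning and co-housing libraries held rows 146, 147 and 145, and the re-separation libraries rows 825, 826 and 823. In each set the first 2 were the main forms: 29 of the 30 libraries held reads of exactly 1 of the pair, and only WT library 8 held both, with 111 reads of row 146 and 35 of row 147. The variants may be strains or species, and whether row 146 is the same sequence as row 825 or 826 is not known here.

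All 15 KO libraries held the same member of the pair within their set. Row 146 was present in 10 of 10 KO libraries at weaning and co-housing and row 825 in 5 of 5 after re-separation, while rows 147 and 826 had 0 reads in all 15. The share of all variants with reads in WT but in no KO library was not counted, so how unusual this split is was not tested. WT mice were mixed. At weaning row 147 was present in WT libraries 7, 8, 9 and 10 and row 146 in libraries 6 and 8; after co-housing row 147 was present in libraries 17, 18 and 20 and row 146 in 16 and 19; after re-separation row 826 was present in libraries 27, 29 and 30 and row 825 in 26 and 28.

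**Figure D2:**
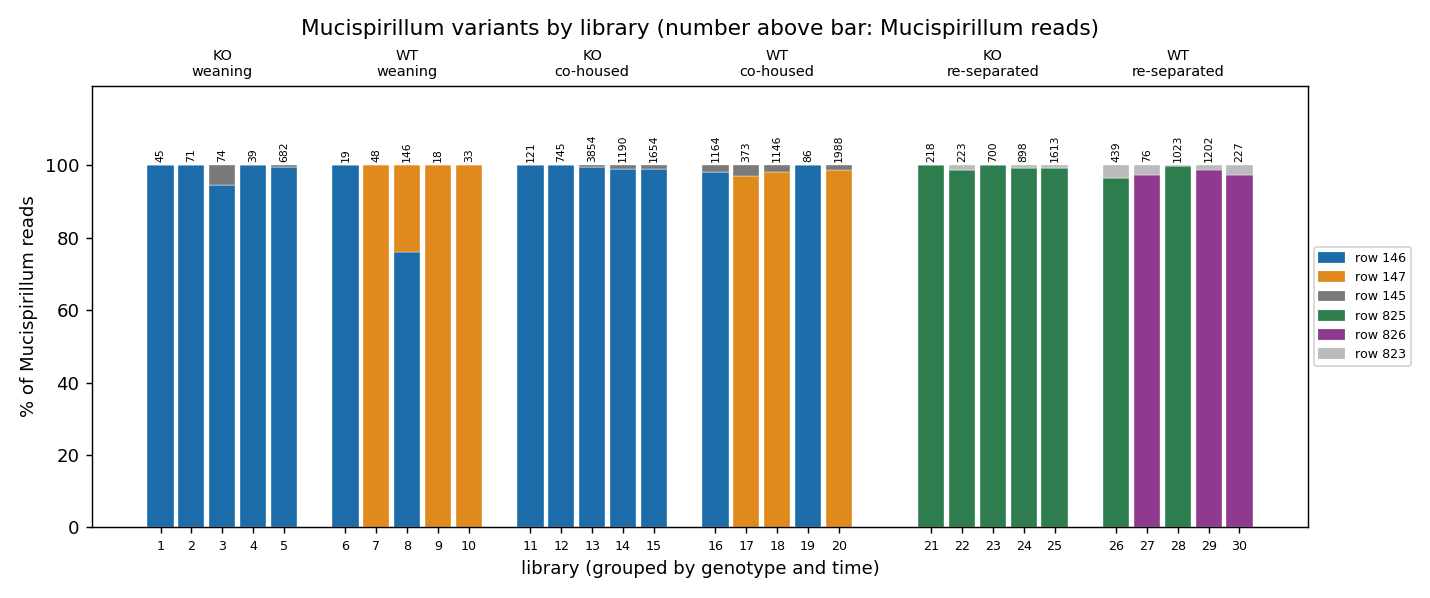
Percent of Mucispirillum reads held by each variant (coloured by table row) in each library, grouped by genotype and time, with the number of Mucispirillum reads above each bar. Rows 147 and 826 have 0 reads in all 15 KO libraries, and WT libraries hold 1 or the other of a pair, except library 8, which holds both.

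The share of row 147 was 0% in all 10 KO libraries. In WT mice it was 0.306, 0.0668, 0.0890 and 0.0874% of reads at weaning in libraries 7 to 10 and 0% in library 6, and after co-housing it was 1.70, 2.96 and 5.70% in libraries 17, 18 and 20 and 0% in libraries 16 and 19. The ranges thus met at 0, while they did not overlap for 6.16% of variants at weaning and 1.03% after co-housing. Row 147 was lower in KO than in WT mice at weaning (edgeR's quasi-likelihood test, adjusted p = 0.0104 over 292 variants) and after co-housing (adjusted p = 0.0066), where 20.9% and 1.03% of variants passed. Row 147 reached the filter on low counts through WT libraries alone, so a lower KO level was built into its being tested, and its p-values are no independent support for the counts of libraries above. Set against the limit of 3 reads per library, its mean was at least 7.02-fold lower in KO mice at weaning (at least 3.88-fold without library 7) and at least 167-fold lower after co-housing (at least 94.0-fold without library 20).

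Both calls on row 147 held without any 1 library, with edgeR adjusted p of 0.0121 to 0.0416 at weaning and 0.00163 to 0.0391 after co-housing. Leaving out 1 library does not undo the selection by the filter. The exact permutation test on shares did not pass (p = 0.0476, adjusted 0.265 at weaning; p = 0.167, adjusted 0.583 after co-housing). Without libraries 1, 5, 11 and 19 the adjusted p was 0.0643 at weaning, and after co-housing it was 0.0899 with a filter of 50 reads and 0.267 in a fit of those 2 groups alone.

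After re-separation row 826 followed the same form, with 0% in all 5 KO libraries and 0.161, 2.03 and 0.557% in WT libraries 27, 29 and 30. Its mean was at least 109-fold lower in KO mice, and edgeR's quasi-likelihood test gave an adjusted p of 0.149 over 278 variants, of which 1.44% passed and 4.32% had ranges that did not overlap. The bound was at least 35.5-fold without library 29. DESeq2 put its adjusted p at 0.00236. Row 826 too reached the filter through WT libraries alone, the 3 that hold it, so neither p is independent of that selection. The 3 times may hold the same mice, so they are not independent of each other and no test was pooled over them.

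The partner forms were present in every KO library and in a minority of WT libraries. Row 146 averaged 1.48 ± 2.79% in KO and 0.0586 ± 0.0926% in WT mice at weaning, and 5.09 ± 3.16% and 0.707 ± 1.36% after co-housing (SD, n = 5 each). Its log2 fold change of KO over WT was 3.46 ± 1.99 at weaning (SE, edgeR adjusted p = 0.197) and 3.31 ± 1.97 after co-housing (adjusted p = 0.628). Row 825 averaged 1.20 ± 0.909% in KO and 0.477 ± 0.786% in WT mice after re-separation (1.25 ± 1.75, adjusted p = 0.754). These differences did not pass in the main fit, and 1 of 9 other settings called row 146 at weaning and 1 of 9 after co-housing. The change of the genotype difference between weaning and co-housing passed by edgeR for 0 of the 6 member variants in which it could be estimated, 0 of them at an unadjusted p under 0.05, where 6.16% of variants passed. It could not be estimated for row 147, which was at 0 in KO mice at both times.

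How firmly a missing form can be called missing depends on the reads of the genus. In the 29 libraries with 1 form, a count of 0 for the other allowed up to 0.0778 to 16.7% of Mucispirillum reads (median 0.804%). The limit was under 1% in 8 of 15 KO and 7 of 14 WT libraries. The loosest limits were at weaning, where WT libraries 6 and 9 held only 19 and 18 reads of the genus, so a minor second form could go unseen there.

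Another, rare variant accompanied either main form. Row 145 was found in 9 of 20 libraries with 3 to 24 reads, at 0.363 to 5.41% of Mucispirillum reads, and row 823 in 8 of 10 libraries with 2 to 17 reads, at 0.196 to 3.42%. Row 145 occurred beside row 146 in library 16 and beside row 147 in libraries 17, 18 and 20. Row 145 averaged 0.0462 ± 0.0268% in co-housed WT mice and was at 0 in all 5 WT mice at weaning (edgeR adjusted p = 0.0671). It reached the filter on low counts through co-housed libraries alone, so this p is not independent of that selection. WT stool at weaning held 18 to 146 reads of the genus per library. A count of 0 there allowed up to 2.05% (library 8) to 16.7% (library 9) of the genus. The median share of row 145 where it was found, 1.21% of the genus, lies below these limits.

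Helicobacter was among the leading genera at all times. Its mean ranked 5 in KO and 6 in WT weanlings, 4 in KO and 5 in WT mice once co-housed, and 3 in KO and 4 in WT mice at the end. Its shares after co-housing were 11.6, 8.58, 11.4, 9.55 and 11.1% in KO libraries 11 to 15, and at weaning 7.73, 7.50, 2.51, 1.68 and 8.43% in KO libraries 1 to 5. In WT libraries they were 6.25, 11.7, 8.34, 14.1 and 6.18% after co-housing and 1.80, 6.85, 7.48, 2.07 and 2.83% at weaning. The KO ranges of the 2 times did not overlap, and the WT ranges did, by the low values of libraries 16 and 20. Over all genera, the ranges did not overlap for 5.56% in KO and 20.8% in WT mice.

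In shares, Helicobacter was 4.88 percentage points higher after co-housing than at weaning in KO mice (exact permutation p = 0.00794, adjusted p = 0.135) and 5.11 points higher in WT mice (p = 0.0476, adjusted p = 0.118). By edgeR, which scales for composition, the log2 fold changes were 0.93 ± 0.58 in KO (SE, adjusted p = 0.213) and 0.48 ± 0.58 in WT mice (adjusted p = 0.51), beside medians of 0.74 and 0.90 over all genera. Neither passed over all genera. The higher share of Helicobacter after co-housing was thus near the shift of the median genus in KO mice and below it in WT mice.

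After re-separation Helicobacter stood at 6.91, 10.1, 10.4, 22.1 and 11.4% in KO libraries 21 to 25 and at 9.48, 7.10, 8.30, 10.6 and 6.82% in WT libraries 26 to 30. Library 24 was far above the rest and had Helicobacter as its leading genus. Against weaning, the genus was higher in KO mice (1.67 ± 0.59, edgeR adjusted p = 0.0264). The WT value was 0.49 ± 0.58 (adjusted p = 0.581). In these comparisons 27.8% of genera passed in KO mice (17 higher, 3 lower) and 12.5% in WT mice (7 higher, 2 lower). The median genus stood at 0.35 in KO and 0.56 in WT mice. The late libraries form a set of their own, and how much of this difference comes from the set was not tested. The KO call was lost without library 24 (1.17, adjusted p = 0.213) or without library 3, 4 or 25, and under 6 of 11 other settings. The difference between genotypes in this change was 1.17 and did not pass, where 18.1% of genera did. Against co-housing, the values were 0.73 ± 0.58 in KO (adjusted p = 0.374) and 0.02 ± 0.57 in WT mice (adjusted p = 0.998).

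Helicobacter did not pass between genotypes at any time. Its mean share (± SD of 5 libraries) was 5.57 ± 3.20% in KO weanlings, against 4.21 ± 2.74% in WT weanlings. Co-housed KO mice had 10.5 ± 1.32%, against 9.32 ± 3.51% in co-housed WT mice, and KO mice kept apart again had 12.2 ± 5.81%, against 8.45 ± 1.58% in their WT counterparts. The log2 fold changes of KO over WT were -0.37 ± 0.58, 0.09 ± 0.57 and 0.80 ± 0.58 at these times (SE), with edgeR adjusted p of 0.676, 1 and 0.744. The weaning value is negative although the KO mean share is higher, because scaling for composition moves it: with library size alone it was 0.40, as the median of all genera moved to 0.43, against 0.00 with scaling.

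**Figure D3:**
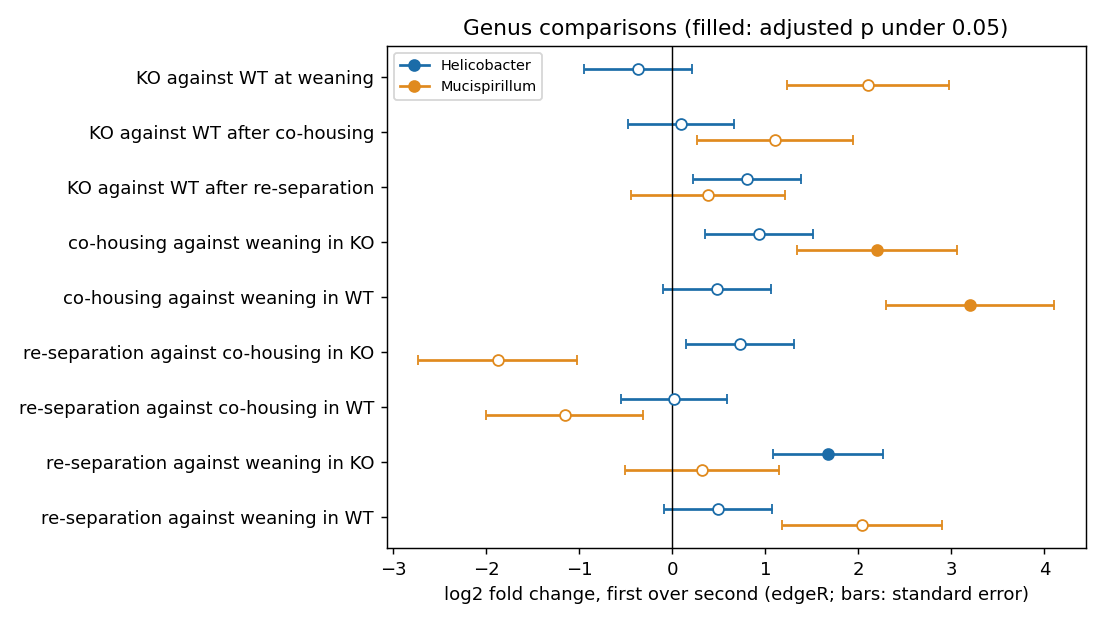
Log2 fold changes of Helicobacter (blue) and Mucispirillum (orange) in 9 comparisons, first group over second, from edgeR, with standard errors as bars. Filled points passed at an adjusted p under 0.05: Mucispirillum for co-housing over weaning in KO (2.20) and WT mice (3.20) and Helicobacter for re-separation over weaning in KO mice (1.67).

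Which variant led Helicobacter varied between libraries of both genotypes. At weaning and after co-housing the genus held 4 variants: rows 151 and 154 without a species name, row 153 labelled Helicobacter mastomyrinus and row 155 labelled Helicobacter typhlonius. At weaning row 153 held more Helicobacter reads than any other variant in 3 of 5 KO (libraries 2, 3 and 4) and 3 of 5 WT libraries (6, 8 and 9), and row 151 in the others. After co-housing row 151 led in 3 of 5 KO and 4 of 5 WT libraries, row 153 in KO library 11 and WT library 19, and row 154 in KO library 13.

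Row 151 had non-overlapping shares between the times in both genotypes, as 2.74% of variants had in KO and 11% in WT mice. It lay at 4.35, 5.19, 4.90, 6.56 and 8.31% in co-housed KO libraries 11 to 15, against 2.46, 0.960, 0.799, 0.130 and 4.29% in KO libraries 1 to 5 at weaning. In WT mice it lay at 3.69, 7.80, 5.11, 6.50 and 3.51% after co-housing, against 0.545, 3.49, 3.22, 0.554 and 1.40% at weaning. All co-housed values were above all weaning values within each genotype, by a narrow margin in both (4.35 over 4.29% in KO and 3.51 over 3.49% in WT mice). The edgeR log2 fold change was 2.23 ± 0.97 in KO (SE, adjusted p = 0.0724) and 1.05 ± 0.94 in WT mice (adjusted p = 0.47), where 27.1% and 0.685% of variants passed, and the exact permutation p was 0.00794 in each (adjusted p = 0.269 in KO and 0.0714 in WT mice).

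Row 154, the other unnamed form, averaged 2.72 ± 2.06% after co-housing and 1.13 ± 1.67% at weaning in KO mice, and 2.32 ± 1.12% and 0.474 ± 0.324% in WT mice (SD, n = 5 each). Its changes did not pass (2.05 ± 1.22 in KO, edgeR adjusted p = 0.21, and 1.69 ± 1.21 in WT mice, adjusted p = 0.345). Its reads tracked those of row 151 across the 20 libraries (Spearman's rho of counts 0.803, which also shares library depth), but their ratio ran from 0 in library 3 to 1.24 in library 13, with a median of 0.385.

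The Helicobacter mastomyrinus variant had lower means after co-housing than at weaning in both genotypes, within the spread between libraries. Row 153 averaged 1.47 ± 1.92% after co-housing and 2.27 ± 2.28% at weaning in KO mice, and 1.61 ± 2.93% and 1.89 ± 1.10% in WT mice (SD, n = 5 each), and no change passed (-0.72 ± 1.17, edgeR adjusted p = 0.776 in KO and -0.46 ± 1.17, adjusted p = 0.794 in WT mice). The co-housed means rested on 1 library of each genotype. In KO library 11 row 153 was at 4.79%, against 0.0899 to 1.45% in the other 4 co-housed KO libraries, and in WT library 19 it was at 6.85%, against 0.112 to 0.453% in the other 4.

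Those same 2 libraries held the least Mucispirillum of their groups, 0.475% in library 11 and 0.422% in library 19. They also had row 155, the Helicobacter typhlonius variant, at 1.69% and 0.3%, and little of row 154, at 0.726% and 0.506%, the lowest of each group. Libraries 11 and 19 are among the 4 named above as standing apart, and whether this make-up accounts for that was not tested.

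**Figure D4:**
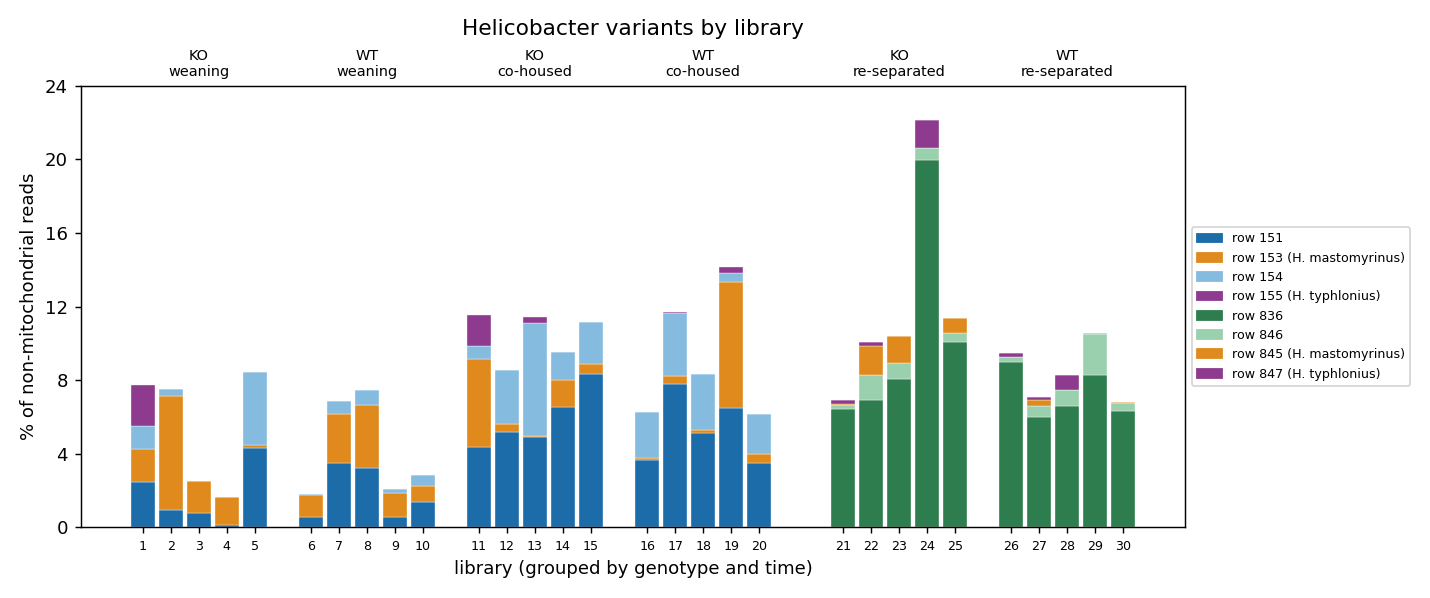
Share of non-mitochondrial reads (percent) held by each Helicobacter variant, stacked by library and grouped by genotype and time; colours mark table rows, and orange and purple mark the 2 species labels in both library sets. Row 153 (orange) is the largest part of the bar in 6 of 10 libraries at weaning, row 151 (dark blue) leads 7 of 10 after co-housing, and row 836 (dark green) leads all 10 after re-separation.

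Helicobacter typhlonius was patchy. Row 155 had reads in 1 of 5 KO and 0 of 5 WT libraries at weaning and in 2 of 5 of each genotype after co-housing, at 2.20% in KO library 1, 1.69% in KO library 11, 0.352% in KO library 13, 0.3% in WT library 19 and 0.0470% in WT library 17. No comparison of it passed in the main edgeR fit. The weaning comparison of KO with WT mice (edgeR adjusted p = 0.063) rests on library 1 alone.

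After re-separation the genus held 5 variants, of which row 836, without a species name, was dominant in all 10 libraries with 68.6 to 94.9% of Helicobacter reads. It lay at 6.45, 6.91, 8.05, 20.0 and 10.1% in KO libraries 21 to 25 and at 9.00, 6.01, 6.57, 8.28 and 6.34% in WT libraries 26 to 30. The high total of library 24 was row 836 for the most part. Its log2 fold change of KO over WT was 0.63 ± 0.43 (SE, edgeR adjusted p = 0.667). Row 846, the other unnamed form, averaged 0.713 ± 0.427% in KO and 0.878 ± 0.805% in WT mice (-0.25 ± 0.63, adjusted p = 0.857), and its ratio to row 836 ran from 0.0281 to 0.272.

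The Helicobacter mastomyrinus variant of that time, row 845, was at 0.0588, 1.61, 1.5, 0 and 0.811% in KO libraries 21 to 25 and at 0, 0.329, 0, 0.0223 and 0.0730% in WT libraries 26 to 30. KO libraries 22, 23 and 25 lay above all WT libraries, and library 24 had no read of it. KO mice averaged 0.797 ± 0.765%, against 0.0849 ± 0.140% in WT mice (SD, n = 5 each), with a log2 fold change of 3.10 ± 1.84 that did not pass (edgeR adjusted p = 0.59). Row 847, labelled Helicobacter typhlonius, was present in 4 of 5 KO and 3 of 5 WT libraries, up to 1.5% in KO library 24 and 0.822% in WT library 28 (0.82 ± 1.85, adjusted p = 0.832). Row 1251 had 2 reads in WT library 29 only and was the single member of 15 that did not reach the filter of 10 reads in 3 libraries. Of the Helicobacter variants tested, 0 passed in any comparison in the main edgeR fit. Row 155, present in few libraries, was called under 3 of 7 other settings in the weaning comparison of genotypes, DESeq2 among them. DESeq2 also called it in WT mice between weaning and co-housing. For co-housing over weaning, 1 of 9 other settings called row 151 in KO mice, 1 of 9 row 154 in KO mice and 1 of 9 row 153 in WT mice.

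Over centred log ratios of the genera tested, Spearman's rho of Mucispirillum with Helicobacter was 0.319 across the 20 earlier libraries and 0.309 across the 10 late ones. Both sets mix genotypes and the earlier set also mixes times, so rho also holds differences between groups. It is given as a description. In the 20 libraries the genera most like Mucispirillum were Roseburia (0.802), the Lachnospiraceae NK4A136 group (0.788) and an unclassified genus of Puniceicoccaceae (0.776). Those most like Helicobacter were Mycoplasma (0.648), Blautia (0.484) and the Clostridia vadinBB60 group (0.397). In the 10 re-separation libraries they were Butyricicoccus (0.758), Mycoplasma (0.733) and an unclassified genus of Rickettsiales (0.685) for Mucispirillum, and Anaerotruncus (0.879), Lactobacillus (0.842) and Muribaculum (0.842) for Helicobacter.

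Of the other listed bacteria of the mucus and its sugars, 0 rose from weaning to co-housing in either genotype. Akkermansia, a degrader of mucin, was higher in KO than in WT mice at weaning (1.54 ± 2.35% and 0.00212 ± 0.00474%, SD, edgeR adjusted p = 0.000119) and had 0 reads in all 10 co-housed libraries, so that it fell in KO mice (adjusted p = 2.09e-06). Akkermansia reached the filter on low counts through KO libraries alone, so neither p is independent of that selection. Candidatus Arthromitus, the segmented filamentous bacteria that attach to the ileal epithelium, did not pass in either comparison. Of the 6 tested mucin glycan users, 5 fell from weaning to co-housing in KO mice (Akkermansia, Bacteroides, Muribaculum, Parabacteroides and Muribaculaceae) and 2 in WT mice (Bacteroides and Muribaculaceae), with median log2 fold changes of -3.33 in KO and -1.95 in WT mice (-3.33 with Akkermansia at its 3-read bound and -1.87 without it). Of 4 tested respiring or hydrogen-using Gram-negatives, Parasutterella fell in both genotypes (-3.24 ± 0.87, edgeR adjusted p = 0.00256 in KO and -4.09 ± 0.91, adjusted p = 0.00202 in WT mice). Escherichia-Shigella fell in KO mice (edgeR adjusted p = 0.00236), after having been higher in KO than WT mice at weaning (adjusted p = 0.0172). This genus averaged 0.183 ± 0.377% in KO and 0.000764 ± 0.00171% in WT weanlings (SD), and had 0 reads in co-housed mice of both genotypes. It too reached the filter through KO libraries alone, so its p-values are not independent of that selection. Its KO values at weaning were uneven, with an SD above the mean. At weaning 23.6% of genera passed between genotypes. Desulfovibrio and Bilophila did not pass. The median of the 4 was -1.26 in KO and -0.59 in WT mice, where it was 1.30 without Escherichia-Shigella. Over all genera, 14 rose and 9 fell in KO mice (8 and 9 with DESeq2 size factors), and 15 rose and 6 fell in WT mice (27 and 6 with library size alone).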

How the data were processed

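Stool DNA was purified on columns and its 16S V4 stretch read as paired-end MiSeq amplicons, per the labels' protocols. The deposited values are whole-number read counts per sequence variant and library, not normalized. R 4.5.1 and limma appear, with no role, in the submitters' processing notes, and the deposited table's own name points to dada2, with version, settings and taxonomic reference not given in the sources used here.

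Of 3697 variants 953 had reads, and 4 mitochondrial variants were left out. Genera were summed from the names. Counts were tested with edgeR 4.0.16 in R 4.3.3 (TMMwsp scaling, robust quasi-likelihood F test, 1 coefficient for each of 6 groups), in features with at least 10 reads in 3 libraries, with Benjamini-Hochberg adjustment over all features tested at a threshold of 0.05. Genera were fitted over 30 libraries, variants over 20 or 10. The test was checked on simulated data with large fold changes, for calls of the wrong sign. That check does not show how it behaves at smaller changes or with uneven shares between libraries. Exact two-sided permutation tests used shares. Alternatives were DESeq2 1.42.0 and its size factors, limma-voom (limma 3.58.1), library size alone, other filters, family totals, mitochondrial reads kept, only the groups compared, no libraries 1, 5, 11 and 19, and each library left out. Likeness used centred log ratios with 0.5 reads added.

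Named were both genera, the 14 member variants that passed the filter, the 3 genera most like each member, and list genera called between genotypes or from weaning to co-housing. The members and lists were chosen with earlier results of these data known. Groups came from the labels.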

Additional observations from a re-analysis of the deposited data

Results flagged for a closer look

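In 14 of 49 groups of 5 libraries tested, 1 library lay far from the other 4 by Dixon's ratio (critical value 0.71). A rate of about 1 in 20 would hold for independent values with a normal distribution. Shares are uneven and genus totals were tested beside their own variants, so no excess over chance is shown. Groups in which most libraries are at 0 meet this easily. For Mucispirillum as a genus it was KO library 5 at weaning, with 6.5% of reads against 0.118 to 0.435% in the other 4. By variant it was row 146 in the same library (6.47%), row 146 in co-housed WT library 16 (3.11%), row 145 in co-housed WT library 19 (0%, against 0.0517 to 0.0696%) and row 826 in re-separated WT library 29 (2.03%).

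For Helicobacter mastomyrinus it was row 153 in KO library 2 at weaning (6.17%) and in co-housed WT library 19 (6.85%), and row 845 in re-separated WT library 27 (0.329%). For Helicobacter typhlonius it was row 155 in KO library 1 at weaning (2.2%), in co-housed KO library 11 (1.69%) and in co-housed WT library 19 (0.3%), and row 847 in re-separated KO library 24 (1.5%) and WT library 28 (0.822%). Row 836 of KO library 24 stood at 20%, against 6.45 to 10.1% in the other 4 re-separated KO libraries.

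Reads named as mitochondria, which entered only the alternative that keeps them, reached 0.829% of all reads in WT library 18, against 0 to 0.82% in the others, and were at 0 in 1 library.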

How the results depend on the processing

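The rise of Mucispirillum in WT mice from weaning to co-housing was called under each setting run. The lower row 147 in KO than in WT mice was called at both times whichever 1 library was left out, and lost its call under the settings given in the report, and it was tested only because WT libraries carried it past the filter. Values below are log2 fold changes, or numbers of genera or variants that passed, and exact permutation values of a genus or variant are differences of mean shares in percentage points. The cause of a shift between settings was not tested. No paired analysis was possible because the labels number the libraries 1 to 30 and do not follow a mouse, so the groups share no replicate numbers. Few Mucispirillum reads limited the weaning libraries most, where a second form of the genus could go unseen, and few libraries with reads limited row 155. Scaling moved the median genus: in WT mice co-housing over weaning stood at 0.90 with TMMwsp, 1.82 with library size alone and 0.66 with DESeq2 size factors.

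Mucispirillum, KO over WT at weaning (2.10), was 3.14 with library size alone, 2.24 with DESeq2, 0.68 with limma-voom, -0.14 without libraries 1, 5, 11 and 19, and -0.23 to 2.37 leaving out 1 library, past the threshold without library 1 or without library 4. Its change in KO mice from weaning to co-housing (2.20) was 1.78 with library size alone, 1.77 with DESeq2 size factors, with DESeq2 and with family totals, 2.20 with a filter of 50 reads, 3.62 by permutation and 2.02 in the groups compared alone, none of them past the threshold, and 1.61 to 4.52 leaving out 1 library. In KO mice re-separation over co-housing (-1.88) was -2.19 and past the threshold without libraries 1, 5, 11 and 19. Re-separation over weaning in KO mice (0.32) was -0.31 with library size alone, -0.29 by permutation, 2.55 without those 4 libraries and 0.05 to 2.65 leaving out 1. The same in WT mice (2.04) passed with library size alone (2.63), DESeq2 (2.24), the groups compared alone (1.97) and without those 4 libraries (2.04). The genotype difference after co-housing minus at weaning (-1.0) turned to 1.29 without those 4 libraries and ran from -1.59 to 1.32 leaving out 1. After re-separation minus at weaning (-1.72) it turned to 0.52 and ran from -1.99 to 0.61.

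Helicobacter, KO over WT at weaning (-0.37), was 0.40 with library size alone and 1.36 by permutation, and after co-housing (0.09) it was -0.11 to 0.52 leaving out 1 library. Re-separation over weaning in KO mice (1.67) lost its call with library size alone (1.13), DESeq2 size factors (1.51), no filter (1.61), permutation (6.61), the groups compared alone (1.73) and family totals (1.24), and was 1.17 to 1.89 leaving out 1 library. Re-separation over co-housing in WT mice (0.02) was -0.14 with library size alone, -0.03 without a filter, -0.06 with 50 reads, -0.87 by permutation, -0.04 with mitochondrial reads kept, and -0.14 to 0.45 leaving out 1. The genotype difference after co-housing minus at weaning (0.46) was -0.24 with library size alone.

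Among variants that did not pass, several turned in sign. Row 153, KO over WT at weaning (-0.08), was 0.27 with library size alone, 0.18 without a filter, 0.10 with 50 reads, 0.38 by permutation, 0.14 in the groups alone, 0.49 without libraries 1, 5, 11 and 19, and -1.20 to 0.55 leaving out 1. In co-housed mice (-0.34) it was 0.19 with 50 reads, 0.76 with limma-voom, 0.90 without the 4 libraries and -1.81 to 2.35 leaving out 1. From weaning to co-housing, leaving out 1 library gave -2.19 to 0.40 in KO and -3.14 to 0.11 in WT mice. Row 154, KO over WT at weaning (0.23), was -1.59 with limma-voom, -2.0 without the 4 libraries and -0.95 to 0.81 leaving out 1, and in co-housed mice -0.38 to 0.87. Row 155 in KO mice (0.66) was -0.11 with library size alone, -0.03 by permutation and -1.15 to 9.97 leaving out 1. Row 846 (-0.25) was 0.13 with DESeq2 and its size factors and -0.49 to 0.37 leaving out 1, and row 847 (0.82) was -1.49 to 2.12.

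Numbers of genera that passed moved as follows. KO over WT at weaning (17) gave 27 with library size alone, 0 by permutation and 8 in the groups alone. After co-housing (1) it gave 2 with limma-voom, 0 by permutation, in the groups alone and without the 4 libraries, and 1 to 4 leaving out 1. After re-separation (0) limma-voom gave 1. Co-housing over weaning in KO mice (23) gave 13 with 50 reads, 0 by permutation, 11 in the groups alone and 14 to 27 leaving out 1, and in WT mice (21) 33 with library size alone, 35 without the 4 libraries and 16 to 32. Re-separation over co-housing in KO mice (14) gave 8 with library size alone, 0 by permutation and 5 to 15 leaving out 1. In WT mice (1) it gave 2 with DESeq2 size factors, 0 with 50 reads and by permutation, 3 with DESeq2 and with limma-voom, 6 in the groups alone, 11 without the 4 libraries and 1 to 5 leaving out 1. Re-separation over weaning in KO mice (20) gave 11 with 50 reads and 0 by permutation, and in WT mice (9) 14 with library size alone, 5 with 50 reads, 18 by permutation and in the groups alone, 16 without the 4 libraries and 1 to 8 leaving out 1. The genotype difference after co-housing minus at weaning (3) gave 9 without a filter, 5 with 50 reads, 7 with DESeq2, 1 without the 4 libraries and 3 to 8 leaving out 1. After re-separation minus co-housing (0) DESeq2 gave 1 and leaving out 1 library 0 to 1, and minus weaning (13) 6 to 15.

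For variants, KO over WT at weaning (61) gave 37 with limma-voom, 0 by permutation, 15 without the 4 libraries and 27 to 52 leaving out 1. After co-housing (3) it gave 7 without a filter, 0 with 50 reads, by permutation and in the groups alone, 12 with limma-voom and 1 to 4 leaving out 1. Co-housing over weaning in KO mice (79) gave 51 with 50 reads, 36 with limma-voom, 0 by permutation, 43 in the groups alone, 11 without the 4 libraries and 33 to 82 leaving out 1. In WT mice (2) it gave 4 with library size alone and without a filter, 5 with 50 reads, 26 with DESeq2, 57 with limma-voom, 0 by permutation, 32 in the groups alone, 22 without the 4 libraries and 0 to 12 leaving out 1. The genotype difference (18) gave 30 without a filter, 8 with limma-voom and without the 4 libraries, and 8 to 26 leaving out 1. After re-separation (4) KO over WT gave 2 with 50 reads, 16 with DESeq2, 23 with limma-voom, 0 by permutation and 2 to 16 leaving out 1.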
